A study of Mus musculus with 8 samples.

Results

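The genes described here build and run motile cilia, the beating hairs of the multiciliated cells that line the airways. The list holds 50 mouse genes, chosen by function and found by symbol or older symbol: 4 regulators of ciliogenesis, 14 axonemal dyneins, 4 tektins, 7 radial spoke and central pair genes, 7 other genes of the axoneme or of ciliated cells, 8 genes of intraflagellar transport and 6 of the BBSome. Probes were found for 48 of the 50, out of 25734 genes with a name on the arrays. No probe matched Dnai1 or Tekt4. The 48 genes had 68 probes. For 34 genes there was a single probe, and for the 14 with more the probes were averaged.

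The axoneme is a ring of paired microtubules around a central pair. Dynein arms on the ring slide the microtubules against each other, and radial spokes and the central pair time that motion. Multiciliated cells switch these genes on together through Foxj1 and the RFX factors after the geminin-family regulator Mcidas has started centriole production, while intraflagellar transport and the BBSome carry cargo in motile and in primary cilia alike.

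The comparison was between lungs of 4 TGFb1-Tg mice, which carry a doxycycline-inducible transgene for active human TGF-β1, and lungs of 4 wild-type (WT) littermates, all aged 10 weeks and of B6J background per the labels. The file headers give day 14, doxycycline for the TGFb1-Tg mice and plain water for the WT mice. The labels' protocol gives doxycycline at 1 mg/ml for induction and does not say what the WT mice drank, so if the headers are right, doxycycline and the transgene cannot be told apart. The promoter that drives the transgene is not given in the sources used here. Each lung RNA, labelled with Cy5, was hybridised with a pooled control labelled with Cy3 on an Agilent array with 2 colours. The labels name a combined WT pool for all 8 arrays, whereas the headers name a pool of 4 uninduced transgenic lungs for the TGFb1-Tg arrays and a pool of 4 WT lungs for the WT arrays. Where a pool holds the very lungs it is set against, ratios lie close to 0 for that reason alone, and the sources do not say whether the WT pool did.

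The arrays measured 39039 to 39281 of 39341 probes each. Mouse Tgfb1 had sample intensities of 1.45, 1.70, 1.32 and 1.41 in TGFb1-Tg lungs, against 0.61, 0.64, 0.76 and 0.62 in WT lungs, and whether its probe also reads the human transgene was not tested. WT replicate 1 stood apart by sex: Xist, the RNA of the inactive X chromosome, had a sample intensity of 4.60 there and of 0.04 or less in the other 7 samples. The pools also differed, with Xist at 0.01 to 0.02 in the pool of the TGFb1-Tg arrays and at 1.04 to 1.13 in the pool of the WT arrays. For this reason the log2 ratio of sample over pool, the main measure, is given beside the sample channel compared directly between groups. In the pool of the WT arrays Xist was near the mean of the 4 WT samples, 1.175. The brighter probe of Ddx3y, a gene of the Y chromosome, averaged 5.56 in WT samples and had 5.32 to 6.05 in that pool. A pool of these same 4 lungs would have such levels, but which lungs it held was not tested.

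Most of the motile cilium genes fell in TGFb1-Tg lungs. Of the 48 measured, 35 were lower at a limma adjusted p under 0.05, 1 was higher and 12 were not called. Over all 25647 genes tested, 19.8% were called lower and 19% higher. The median difference, TGFb1-Tg minus WT, was -0.33 on the log2 scale over the 48 genes, against 0 over all genes tested. The difference was below 0 for 43 genes, above 0 for 4 and at 0 for Dnah8. The 4 TGFb1-Tg ratios lay wholly below the 4 WT ratios for 34 genes, where 19% of the 25303 genes complete on all arrays did so, and wholly above for 1 gene, where 18.2% did. Without WT replicate 1, 34 genes were called lower and 2 higher. In RNA of the lung as a bulk tissue, a smaller share of ciliated cells and less of these RNAs per ciliated cell cannot be told apart.

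**Figure D1:**
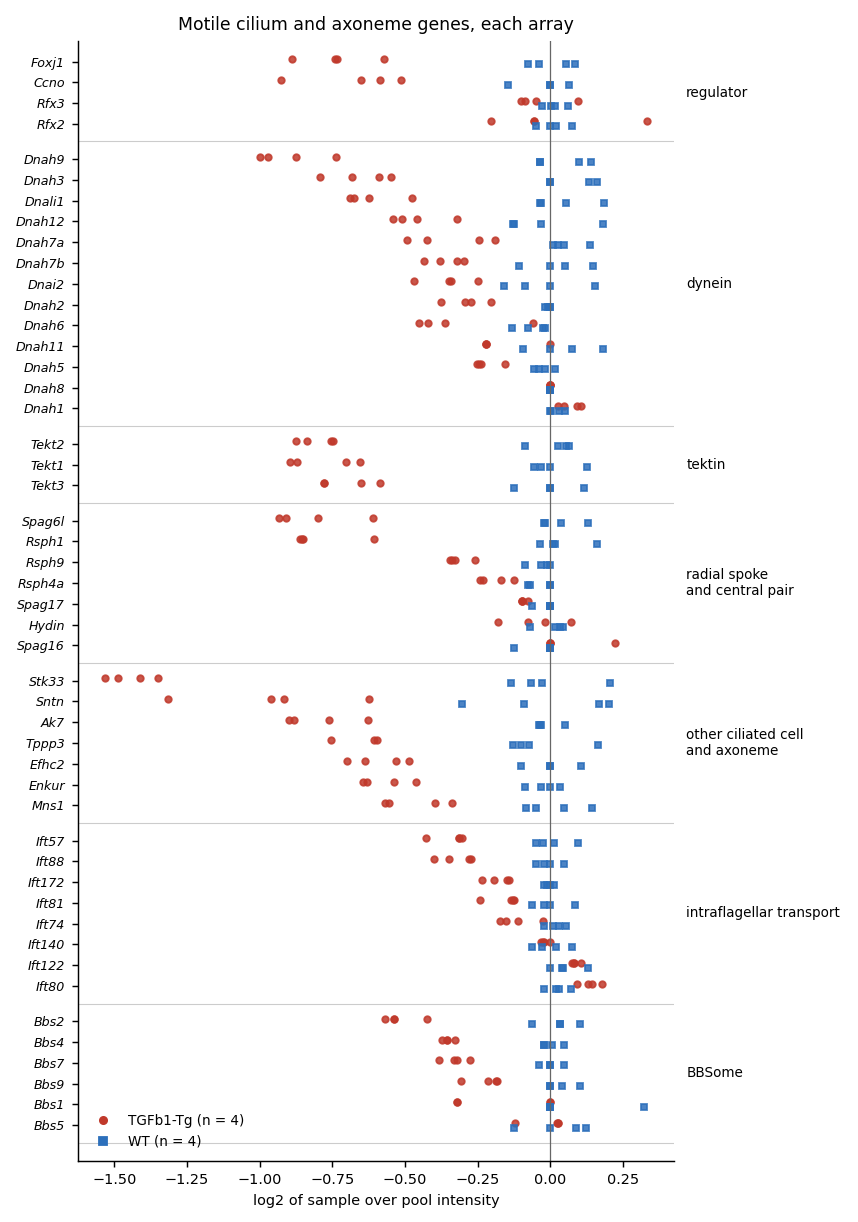
Log2 ratio of sample over pool (x axis) of the 48 measured genes on each array, grouped by role and ordered by difference, with TGFb1-Tg arrays as red circles above WT arrays as blue squares (4 points per group, 3 for Tppp3 in TGFb1-Tg). The WT points scatter around 0, the tektins and Stk33 lie far to the left in all 4 TGFb1-Tg lungs, and most intraflagellar transport genes lie close to 0.

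The shift was present on each of the TGFb1-Tg arrays. The median ratio over the 48 genes (47 on TGFb1-Tg replicate 3) was -0.33, -0.27, -0.36 and -0.39 on the TGFb1-Tg arrays and 0.05, -0.01, 0 and 0 on the WT arrays. By the p-value that the authors deposited for each probe, 16 to 24 of the 66 to 68 measured probes of these genes were under 0.01 on each TGFb1-Tg array, or 24.2% to 35.3%, where 9.85% to 11.5% of all probes were. On each WT array 0 of 68 were, where 0.12% to 0.33% of all probes were. If the WT pool held the same lungs, few probes of any list would pass there, so these arrays are no contrast for this count.

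The summed sample intensity of the 47 genes complete on all arrays was 24.6 to 27.7 in TGFb1-Tg lungs and 31.2 to 35.7 in WT lungs. In the pool it was 34.1 to 36.1 on the TGFb1-Tg arrays and 31.2 to 34.0 on the WT arrays. The sample sums were lower in all 4 TGFb1-Tg lungs, and the pool sums were higher on all 4 TGFb1-Tg arrays.

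Among the regulators, Foxj1, the forkhead factor that switches on the motile cilium program, had sample intensities of 1.74, 2.09, 1.97 and 1.63 in TGFb1-Tg lungs, against 3.22, 2.56, 2.64 and 3.04 in WT lungs. Every TGFb1-Tg lung was below every WT lung, and the pool was at 2.91 to 3.28 on the TGFb1-Tg arrays and 2.70 to 3.04 on the WT arrays. The mean log2 ratio was -0.74 ± 0.13 in TGFb1-Tg lungs and 0.01 ± 0.08 in WT lungs (SD, n = 4 each), a 1.67-fold fall (difference -0.74, SE 0.07, limma adjusted p = 0.000212). Ccno, a cyclin-like protein needed for centriole amplification, had 0.12, 0.14, 0.14 and 0.10 in TGFb1-Tg lungs, against 0.23, 0.19, 0.19 and 0.20 in WT lungs. Its groups did not overlap either, and the ratio was 1.57-fold lower (difference -0.65, SE 0.09, limma adjusted p = 0.00148).

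The RFX factors, which bind X-box motifs in promoters of ciliary genes, were not called when their probes were averaged. The brighter Rfx3 probe had 0.78, 0.75, 0.82 and 0.69 in TGFb1-Tg samples, against 0.87, 0.68, 0.75 and 0.68 in WT samples, so that the groups overlapped. The brighter Rfx2 probe had 0.72, 0.92, 0.96 and 1.01 in TGFb1-Tg samples, against 1.11, 0.87, 0.89 and 0.82 in WT samples, again with overlap. Averaged over their probes, the differences were -0.05 for Rfx3 (SE 0.05, limma adjusted p = 0.449) and -0.01 for Rfx2 (SE 0.11, limma adjusted p = 1). The probes disagreed within both genes, at -0.25 and 0.23 for Rfx2 and at -0.28, -0.02 and 0.15 for Rfx3, each time with the brightest probe the lowest. Rfx3 was called lower on its brightest probe alone, and Rfx2 was not.

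The promoters of the listed genes were searched for the letters that RFX and forkhead factors are known to bind, in the 300 bases from 250 before to 50 after each gene start given by RefSeq on GRCm38.p6, on both strands. Of the 48 measured genes 39 had a promoter entry. The X-box half-site GTTGCC was in 21 of them, or 53.8%, and in 14.1% of the 27025 promoters of all genes. A pair of half-sites with 2 bases between them, spelled GTNNCCNNGGNNAC, was in 8, or 20.5%, and in 2.16% of all promoters. The spelling with 1 base between them, GTNNCCNGGNNAC, was in Ift57 and Mns1, and in 1.18% of all promoters. The forkhead letters TGTTTAC were in 3 promoters, of Ak7, Sntn and Tekt3, or 7.69%, against 4.05% of all. The 3 X-box spellings overlap one another, and all 4 were chosen after several had been looked at. Among the genes with an entry, the half-site was in 14 of the 28 called lower and in 7 of the other 11. The wider match with 2 bases between was in 6 of the 28 and in 2 of the 11.

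The stretches below are examples of these matches in genes of different roles, with the match in capitals and up to 15 bases on either side, read 5′ to 3′ on the strand of the gene. Those of Ccno (plus strand, chr13:112987568-112987611), Bbs7 (minus strand, chr3:36613482-36613525) and Ift57 (plus strand, chr16:49699192-49699235) hold the paired half-sites with 2 bases between, starting at -219, -121 and -87 from the gene start. Those of Ak7 (plus strand, chr12:105705836-105705872), Tekt3 (plus strand, chr11:63061470-63061506) and Sntn (plus strand, chr14:13670626-13670661) hold the forkhead letters, in Sntn on the opposite strand.
Ccno: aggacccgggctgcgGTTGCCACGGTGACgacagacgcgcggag
Bbs7: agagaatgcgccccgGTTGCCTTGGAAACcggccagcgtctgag
Ift57: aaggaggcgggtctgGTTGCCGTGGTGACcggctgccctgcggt
Ak7: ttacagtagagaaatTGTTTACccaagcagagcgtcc
Tekt3: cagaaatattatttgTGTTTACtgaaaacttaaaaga
Sntn: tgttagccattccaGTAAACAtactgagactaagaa
The first 3 begin with the half-site GTTGCC, which Bbs4, Rsph9 and Rfx2, not shown, lack at their paired match. A match is only a description of these letters, and binding was not measured.

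Axonemal dyneins, the motors of the outer and inner arms, were lower for 9 of 13 measured, with none higher and a median difference of -0.33. Dnah9, a heavy chain of the outer arm, had sample intensities of 0.26, 0.30, 0.24 and 0.22 in TGFb1-Tg lungs, against 0.54, 0.41, 0.45 and 0.41 in WT lungs. All 4 TGFb1-Tg lungs were lower, and the mean log2 ratio was -0.90 ± 0.12 in TGFb1-Tg lungs and 0.04 ± 0.09 in WT lungs (SD, n = 4 each), a 1.92-fold fall (difference -0.94, SE 0.07, limma adjusted p = 7.8e-05). Among the dyneins this was the most negative difference.

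The inner arm light chain Dnali1 had 0.49, 0.59, 0.48 and 0.47 in TGFb1-Tg samples, against 1.00, 0.89, 0.84 and 0.78 in WT samples, without overlap, and its ratio was 1.58-fold lower (limma adjusted p = 0.00029). The inner arm heavy chain Dnah3 fell 1.65-fold, with its 2 probes at -0.75 and -0.70. It is dim, at a mean intensity of 0.09. The probe at -0.70 had 0.03 in all TGFb1-Tg samples and 0.06 to 0.07 in WT samples, where 2 decimals leave the size of the fall uncertain. The other calls were Dnah12 (-0.43), Dnah7a (-0.39), Dnah7b (-0.38), the outer arm intermediate chain Dnai2 (-0.33), Dnah2 (-0.28) and Dnah5 (-0.20). Dnah7a and Dnah7b are near-identical copies, so signal may be shared between their probes and both values are uncertain.

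For several large dyneins the probes differed in brightness and gave different answers. The brightest Dnah2 probe had 0.13, 0.15, 0.14 and 0.13 in TGFb1-Tg samples, against 0.26, 0.22, 0.23 and 0.24 in WT samples, a ratio difference of -0.77. Its other 2 probes, at sample intensities of 0.06 or less apart from 0.10 in WT replicate 1, gave -0.10 and 0.03. The brighter Dnah5 probe, for a heavy chain of the outer arm often mutated in human primary ciliary dyskinesia, had 0.27, 0.25, 0.19 and 0.23 in TGFb1-Tg samples, against 0.53, 0.39, 0.48 and 0.35 in WT samples, and a ratio difference of -0.44. Both of these probes separated the groups in the sample channel, and the values of both genes averaged over all their probes lay nearer to 0.

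Of the 4 dyneins not called, Dnah6 turned on this point. Its brighter probe had 1.03, 1.29 and 1.12 on the 3 TGFb1-Tg arrays that measured it, against 3.04, 2.29, 2.05 and 2.03 on the WT arrays, and a difference of -0.82. A second probe at 0.01 or less gave 0.11, and their mean was -0.26 (limma adjusted p = 0.0545, called without TGFb1-Tg replicate 2, on which the brighter probe was missing). Dnah11, an outer arm heavy chain also known from left-right patterning, was at -0.21 (limma adjusted p = 0.0706). Dnah8 had 0.02 to 0.03 in TGFb1-Tg samples and 0.02 to 0.04 in WT samples, at the lower end of what 2 decimals resolve, and no difference could be seen at that signal. Dnah1 was the only dynein above 0, at 0.05 averaged over its 3 probes, through 1 probe at 0.14. Its brightest probe was at -0.000486. That probe had 0.94, 0.69, 0.72 and 0.37 in TGFb1-Tg samples, against 1.12, 0.82, 1.09 and 0.64 in WT samples, which overlap, and the pool moved along with the sample on each array.

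**Figure D2:**
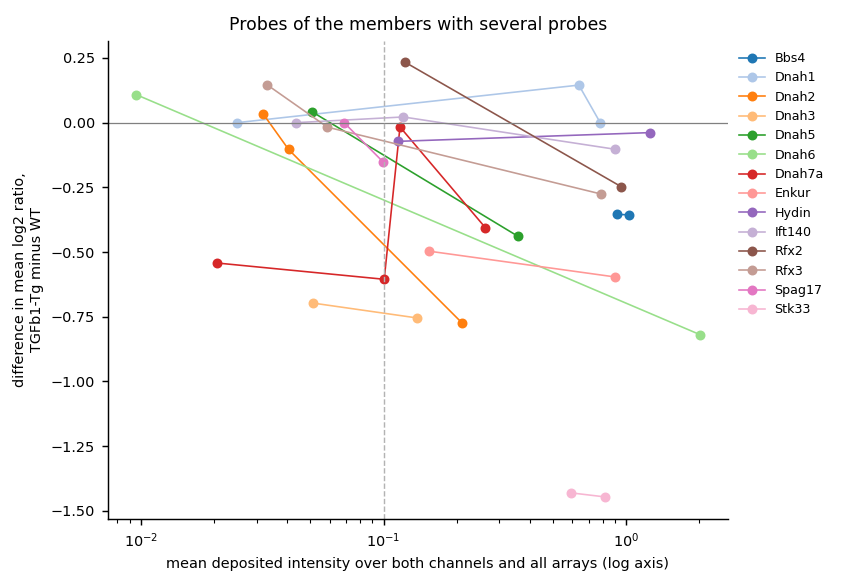
Difference (TGFb1-Tg minus WT) in mean log2 ratio, y axis, of each probe against its mean intensity over both channels and 8 arrays (x axis, log scale) for the 14 genes with several probes, with lines joining the probes of a gene. The dashed line marks an intensity of 0.1; the brightest probes of Dnah2 (-0.77) and Dnah6 (-0.82) lie well below their dim probes, while the 2 probes of Stk33 and of Bbs4 lie side by side.

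All 3 measured tektins, filament proteins that run along the doublet microtubules, fell. Tekt1 had sample intensities of 0.80, 0.89, 0.75 and 0.70 in TGFb1-Tg lungs, against 1.33, 1.25, 1.27 and 1.27 in WT lungs. Tekt2 had 0.28, 0.32, 0.28 and 0.24 in TGFb1-Tg lungs, against 0.55, 0.53, 0.47 and 0.48 in WT lungs. Tekt3 had 0.08, 0.07, 0.07 and 0.07 in TGFb1-Tg lungs, against 0.13, 0.11, 0.13 and 0.13 in WT lungs. In none of the 3 did the groups overlap. The ratios were 1.73-fold lower for Tekt1 (SE 0.07 on the log2 scale, limma adjusted p = 0.000144), 1.76-fold for Tekt2 (SE 0.04, limma adjusted p = 2.38e-05) and 1.62-fold for Tekt3 (SE 0.06, limma adjusted p = 0.000194), a narrow range around a median of -0.79.

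Of the 7 radial spoke and central pair genes 5 were lower, with a median difference of -0.15. A wide gap lay between a pair of strongly lower genes and the others. Spag6l, a central pair protein (listed as Spag6 and carrying the accession of Spag6l), had 0.49, 0.59, 0.54 and 0.45 in TGFb1-Tg lungs, against 0.94, 0.82, 0.65 and 0.73 in WT lungs, and its ratio was 1.79-fold lower (difference -0.84, SE 0.08, limma adjusted p = 0.000178). Rsph1, a protein of the radial spoke head, had 1.02, 1.13, 0.97 and 0.83 in TGFb1-Tg lungs, against 1.82, 1.64, 1.74 and 1.68 in WT lungs, and was 1.78-fold lower (difference -0.83, SE 0.07, limma adjusted p = 0.000131). Neither gene had overlapping groups in the sample channel.

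The other spoke head genes behaved otherwise in the sample channel. Rsph9 had 1.40, 1.57, 1.53 and 1.56 in TGFb1-Tg samples, against 1.57, 1.39, 1.13 and 1.40 in WT samples, while its pool was at 1.77 to 1.98 on the TGFb1-Tg arrays and at 1.20 to 1.57 on the WT arrays. Its ratio difference of -0.29 (limma adjusted p = 0.000218) was therefore 0.15 in the sample channel alone, of the opposite sign. Rsph4a likewise was at -0.15 in the ratio and at 0.12 in the sample channel. Spag17, a central pair protein, was called lower by 0.08 in the ratio and was at -0.60 in the sample channel. It is dim, at a mean intensity of 0.08, and its pool differed the same way, by -0.52. In quantile-normalized sample channels it was at -0.19 and not called. Hydin, a large central pair protein, was not called, at -0.06; 1 of its 2 probes carries a predicted-gene symbol in the file. Spag16, of the central pair, had 0.06, 0.07, 0.06 and 0.07 in TGFb1-Tg samples, against 0.09, 0.11, 0.11 and 0.07 in WT samples, and the same values in the pool to within 0.01, so that its ratio difference was 0.09 (limma adjusted p = 0.318) with overlapping groups.

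All 7 of the other axoneme and ciliated cell genes were lower, with a median difference of -0.62. Stk33, a serine/threonine kinase known for its part in sperm flagella, had the most negative difference of the 48 genes and was the only one lower by more than 2-fold. Its brighter probe had 0.36, 0.40, 0.37 and 0.32 in TGFb1-Tg lungs, against 1.14, 0.94, 0.89 and 0.82 in WT lungs, and its second probe 0.25, 0.28, 0.27 and 0.25 in TGFb1-Tg lungs, against 0.87, 0.66, 0.62 and 0.65 in WT lungs. Both probes kept the groups far apart, and the mean log2 ratio was -1.45 ± 0.08 in TGFb1-Tg lungs and -0.01 ± 0.15 in WT lungs (SD, n = 4 each), a 2.71-fold fall (SE 0.08, limma adjusted p = 2.43e-05).

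Sntn, or sentan, of the tip of airway cilia, had 0.76, 1.26, 0.93 and 0.99 in TGFb1-Tg samples, against 1.52, 1.70, 1.56 and 1.28 in WT samples, a 1.93-fold lower ratio (SE 0.17, limma adjusted p = 0.00434). TGFb1-Tg replicate 2 nearly reached WT replicate 4, the closest approach of the groups. The adenylate kinase Ak7 had 1.09, 1.32, 1.18 and 1.10 in TGFb1-Tg samples, against 2.02, 1.77, 1.75 and 1.67 in WT samples, a 1.72-fold lower ratio (limma adjusted p = 0.000104). Tppp3, a tubulin-binding protein abundant in ciliated cells, had 14.51, 16.44 and 17.58 on the 3 TGFb1-Tg arrays that measured it, against 21.52, 23.19, 19.92 and 23.65 on the WT arrays, and was 1.53-fold lower in a fit without TGFb1-Tg replicate 3. Efhc2, an EF-hand protein of the doublets, fell by 0.59 and Enkur, or enkurin, by 0.55. Mns1, a filament protein inside the doublets, had 0.66, 0.79, 0.66 and 0.64 in TGFb1-Tg samples, against 1.06, 0.82, 0.87 and 0.92 in WT samples, the least negative of these 7 genes at -0.48 (limma adjusted p = 0.00178).

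**Figure D3:**
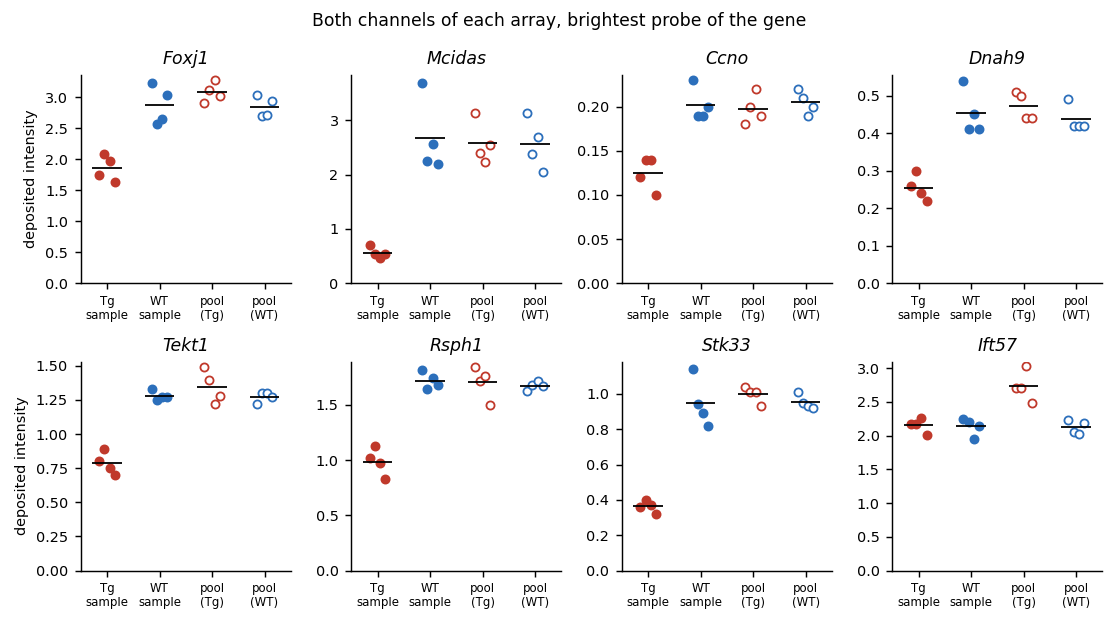
Deposited intensity of both channels on each array for 7 of the listed genes and for Mcidas, from the brightest probe, with filled points for lung samples (TGFb1-Tg red, WT blue), open points for the pool hybridised on the TGFb1-Tg arrays (red) and on the WT arrays (blue), and black lines for means over 4 arrays. For Foxj1, Ccno, Dnah9, Tekt1, Rsph1, Stk33 and Mcidas the TGFb1-Tg samples lie below the WT samples and both pools; for Ift57 the samples overlap and the pool of the TGFb1-Tg arrays is high.

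Of the 8 intraflagellar transport genes, 5 were lower, 1 was higher and the median difference was -0.15, as it was for the spoke and central pair genes. The lower ones were Ift57, Ift74, Ift81, Ift88 and Ift172, all of complex B, which drives transport toward the tip, with differences of -0.13 to -0.35. Ift57 was lowest at -0.35 (SE 0.04, limma adjusted p = 0.000606). Its sample intensities were 2.18, 2.17, 2.26 and 2.01 in TGFb1-Tg lungs, against 2.25, 2.20, 1.95 and 2.15 in WT lungs, which overlap. Its pool was at 2.71, 2.70, 3.04 and 2.48 on the TGFb1-Tg arrays, against 2.23, 2.06, 2.02 and 2.19 on the WT arrays, and the sample channel alone gave a difference of 0.01.

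Ift88, which primary and motile cilia both need, had 1.21, 1.10, 1.16 and 0.97 in TGFb1-Tg samples, against 1.52, 1.41, 1.29 and 1.16 in WT samples. Its groups overlapped only through WT replicate 4, and the differences were -0.32 in the ratio and -0.27 in the sample channel. Ift80, also of complex B, was the 1 gene of the 48 called higher: it had 1.87, 1.92, 1.90 and 1.95 in TGFb1-Tg lungs, against 1.67, 1.39, 1.47 and 1.59 in WT lungs. These did not overlap, and the ratio was 1.08-fold higher (difference 0.11, SE 0.03, limma adjusted p = 0.0133), with 0.32 in the sample channel. The complex A genes Ift122 (0.03) and Ift140 (-0.02), of the return transport, were not called. Ift74 lost its call without WT replicate 1, without WT replicate 2 or without TGFb1-Tg replicate 4, at limma adjusted p of 0.0539 to 0.0585.

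The BBSome is a coat that moves membrane proteins in and out of cilia. Of its 6 genes 4 were lower, with a median of -0.29. Bbs2 had sample intensities of 0.73, 0.71, 0.73 and 0.62 in TGFb1-Tg lungs, against 1.02, 0.86, 0.87 and 0.88 in WT lungs, without overlap, and its ratio was 1.46-fold lower (difference -0.54, SE 0.04, limma adjusted p = 0.000112). The 2 probes of Bbs4 were at -0.35 and -0.36, and the groups were apart on both in the sample channel. Bbs7 (-0.33) and Bbs9 (-0.26) were called in the ratio and were at -0.04 and -0.13 in the sample channel. Bbs1, dim at 0.04 to 0.05 in all samples of both groups, was not called. Bbs5 had 0.55, 0.57, 0.57 and 0.60 in TGFb1-Tg samples, against 0.50, 0.49, 0.44 and 0.44 in WT samples, all TGFb1-Tg samples higher. Its pool moved the same way, and its ratio difference was -0.03 (limma adjusted p = 0.728).

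Setting the roles side by side, the sample channel compared directly called 29 of the 48 genes lower and 2 higher, Ift80 and Bbs5, where 30.3% of all genes were called lower and 21.1% higher. It shared 26 lower calls with the ratio. The 9 ratio calls it lacked were Ift57, Ift74, Ift81, Ift88, Ift172, Bbs7, Bbs9, Rsph4a and Rsph9. It added Dnah6, Dnah11 and Spag16. By role it called 11 of 13 dyneins lower, 3 of 3 tektins, 7 of 7 other axoneme and ciliated cell genes, 2 of 4 regulators, 4 of 7 spoke and central pair genes, 2 of 6 BBSome genes and 0 of 8 intraflagellar transport genes. The median difference over all genes was -0.17 in the unscaled sample channel, and 0.03 over genes that are not dim (mean intensity of at least 0.1).

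After quantile normalization of the sample channels, which brings the median of all genes to 0.02, 23 genes were lower and 1 was higher, against 14.1% and 20% of all genes. All 23 were also called lower in the ratio. They included the 3 tektins, 6 of the 7 other axoneme and ciliated cell genes, 6 dyneins, Foxj1 and Ccno. With the ratios themselves quantile normalized, so that every array has the same spread, 17 genes were called lower and 0 higher, against 4.94% and 5.62% of all genes. In the pools, set side by side without a test since each set of arrays has 1 pool, the median difference of the 48 genes was 0.04 (TGFb1-Tg arrays minus WT arrays), against -0.09 over all genes and 0.09 over genes that are not dim. The pools differed most, upward, for Rsph9 (0.44) and Ift57 (0.36) and, downward, for Spag16 and Dnah5 (-0.61 each).

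**Figure D4:**
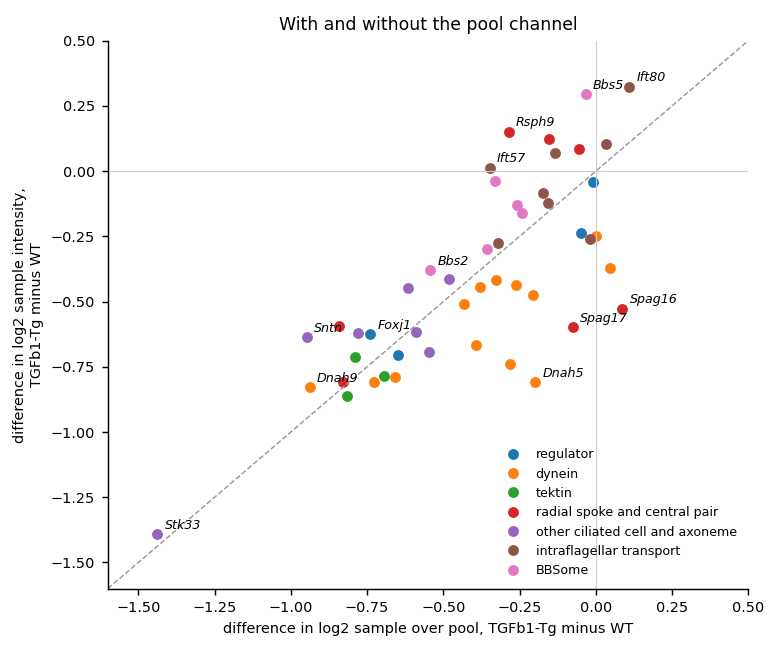
Difference in log2 sample intensity (y axis) against difference in log2 ratio of sample over pool (x axis), both TGFb1-Tg minus WT, for the 48 genes, coloured by role; on the dashed line both are equal. Stk33, the tektins, Foxj1 and Dnah9 are far below 0 on both axes, Rsph9 and Ift57 are below 0 on the x axis only, and Dnah5, Spag17 and Spag16 are far below 0 on the y axis only or mainly.

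A wider list of 176 cilium genes beyond the 50 was set beside them, 167 of them measured. Of these 102 were lower and 9 higher, with a median of -0.24, where 19.8% of all genes tested were called lower and 19% higher. The genes that control multiciliogenesis, or mark multiciliated cells, were lower for 23 of 37 and higher for 4, with a median of -0.46. Mcidas, which starts the multiciliated program and is the neighbour of Ccno in the gene table of GRCm38.p6, had sample intensities of 0.71, 0.54, 0.46 and 0.54 in TGFb1-Tg lungs, against 3.68, 2.25, 2.57 and 2.20 in WT lungs. The groups lay far apart, both pools were at the WT level (2.23 to 3.14 on the TGFb1-Tg arrays, 2.05 to 3.14 on the WT arrays), and the ratio difference was -2.25 (SE 0.08, limma adjusted p = 5.2e-06), larger than that of any of the 48 genes. Dcdc2a (-1.39), a doublecortin-domain protein, and the cytochrome Cyp2s1 (-1.31) followed.

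The 4 control genes that rose were Plk4 (0.78), the kinase that starts centriole duplication in every dividing cell, Foxn4 (0.34), Ccp110 (0.18) and the dim Rfx4 (1.28). Plk4 had 0.84, 1.02, 1.02 and 1.00 in TGFb1-Tg samples, against 0.43, 0.45, 0.55 and 0.52 in WT samples, with no overlap. Rfx4 was at 0.04 to 0.05 in TGFb1-Tg samples and 0.03 to 0.06 in WT samples, and at 0.02 in the pool of the TGFb1-Tg arrays, so that its difference was 0.30 in the sample channel. Beside the rise of Plk4, all 15 cell cycle genes listed were higher, against 19% of all genes tested. Their summed intensity was 23.2 to 28.3 in TGFb1-Tg lungs and 4.93 to 6.83 in WT lungs. Their part in the rise of Plk4 was not tested.

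Dynein assembly and docking genes were lower for 15 of 23 with none higher (median -0.31), led by the assembly factor Zmynd10 (-0.83), the light chain Dynlrb2 (-0.74) and the heavy chain Dnah10 (-0.73). Nexin link, spoke and central pair genes were lower for 46 of 55 (median -0.44), led by the dim Nme8 (-0.95), Iqca (-0.91) and Cfap206 (-0.86), while Nme7 (0.33) was higher. Other intraflagellar transport and primary cilium genes were lower for 18 of 52 and higher for 4, against 19.8% and 19% of all genes tested. Their median of -0.08 is nearer to the 0 of all genes. The lowest called there were Traf3ip1 (-0.59), Arl3 (-0.44) and Kif17 (-0.42), and the highest Ofd1 (0.19), Kif3b (0.19) and B9d2 (0.16), which lost its call when any of 6 of the 8 arrays was left out. In the sample channel alone that last group of 52 had 8 lower and 10 higher, where 30.3% of all genes were lower and 21.1% higher.

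Markers of other epithelial cells moved too, where 19.8% of all genes tested were called lower and 19% higher. Of 10 measured genes of club cells, the secretory cells that lie among the ciliated cells, 9 were lower, with a median of -1.38, and their summed intensity was 26.6 to 31.1 in TGFb1-Tg lungs and 63.9 to 69.9 in WT lungs. Their summed pool was at 78.8 to 81.2 on the TGFb1-Tg arrays and at 65.8 to 70.7 on the WT arrays. All 9 pan-epithelial genes measured, such as Epcam, Cdh1 and Krt8, were higher, with a median of 0.56 and, for the 8 complete on all arrays, a summed intensity of 69.0 to 79.1 in TGFb1-Tg lungs and 38.4 to 47.0 in WT lungs. The club cell gene not called was Kcne3, at -0.06 (limma adjusted p = 0.391) with overlapping groups. The part of both lists in the result for the ciliary genes was not tested.

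**Figure D5:**
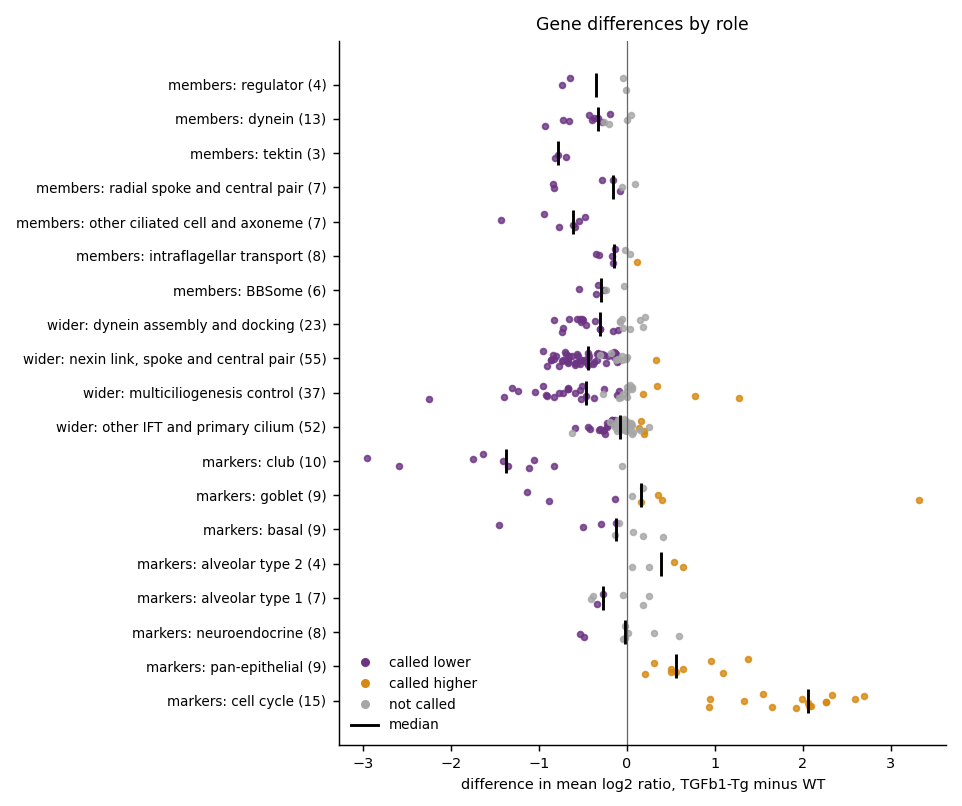
Difference (TGFb1-Tg minus WT) in mean log2 ratio, x axis, of each measured gene by role for the 48 genes (members), the wider cilium list and the marker lists, with the number of genes in brackets, a black bar at the median and colours for the limma call. Tektins (median -0.79) and the other axoneme and ciliated cell genes (-0.62) have the lowest medians among the 48 genes, and intraflagellar transport and spoke and central pair genes (-0.15 each) the highest; club cell markers lie lower still (-1.38) and cell cycle genes far above 0 (2.06).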

How the data were processed

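Per the labels' protocols, total RNA from lung was extracted with Trizol and 100 ng was amplified in RT and IVT rounds; the submitters' processing notes name Agilent Feature Extraction 8.5.1.1. The authors deposited, per array and probe, the intensity of each channel on a linear scale of small decimals, a p-value, used only to count probes under 0.01, and a value table of log10 ratios, which matched the intensities within 0.005 with a median of 0 on every array. The sources used here do not give the background correction, dye normalization, slides or build.

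Probes were named through RefSeq accessions or symbols of GRCm38.p6 (9278 had no gene); Dnahc3, an older symbol of Dnah3 and Dnah12, was read as Dnah3. Log2 ratios were compared with lmFit and eBayes of limma 3.58.1 (R 4.3.3), a two-sided test that asked for 2 or more values in each group, adjusted by Benjamini-Hochberg over 25647 genes; the number of arrays limits the precision. The labels call the samples replicates without naming the animal of each, and p-values then measure only the spread between these samples, which may be technical. The members, lists and named genes (all regulators and tektins, and the lowest and highest of each role, with others that show a contrast between probes or channels; of the wider list up to 3 at each end of each role, where called) were chosen with earlier results of these data known. Alternatives were direct sample channels, quantile normalization, an offset of 0.05, no genes under 0.1, the brightest probe, the value table, the replicate number as a block and each array left out. On simulated data for this comparison with 25303 genes, 65% of 100 genes changed by 0.5 and 90% of 100 changed by 1 were recovered, with 4 false calls. Only these genes were changed there, with normal noise, whereas 38.8% of genes were called in the data. The recovery and false calls in the data may therefore differ.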

Additional observations from a re-analysis of the deposited data

Results flagged for a closer look

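In 17 of 134 groups of ratios, 1 array lay apart from the other 3 by Dixon's criterion. The 134 include groups that could not be tested, for a missing value (Tppp3 in TGFb1-Tg) or for no spread (Dnah8). Chance flags about 1 in 20 groups. TGFb1-Tg replicate 2 was nearer to 0 than the other TGFb1-Tg arrays for Rsph1 (-0.61), Dnah5 (-0.16), Iqca (-0.71) and Cfap206 (-0.73), and was the only one above 0 for Spag16 (0.22). TGFb1-Tg replicate 1 was at 0 for Dnah11, where the other 3 were at -0.22, at -0.076 for Spag17 and at -1 for Nme8. TGFb1-Tg replicate 3 was the lowest for Ift57 (-0.43), Bbs5 (-0.12) and the dim Rfx4 (1), and TGFb1-Tg replicate 4 for Ift81 (-0.24). Among WT arrays, replicate 1 stood apart for Ak7 (0.051) and Kif17 (-0.070), replicate 2 for Spag17 (-0.063), and replicate 3 for Spag16 (-0.13) and Bbs1 (0.32). The ratios of Dnah11, Spag16, Spag17, Nme8, Bbs1, Kif17 and Rfx4 take few distinct values, with ties.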

How the results depend on the processing

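Of the 48 genes, 35 were called lower and 1 higher. Quantile normalization of the ratios, which gives all arrays one spread, called 17 lower and 0 higher, with a median of -0.22 and 2709 genes called over the whole table, against 9956. Direct sample channels called 29 lower and 2 higher (median -0.44). Quantile-normalized direct channels, added after seeing the data, called 23 lower (median -0.23). Leaving out 1 array gave 34 to 36 lower, 1 to 2 higher (2 without WT replicate 1, with Ift122), medians of -0.35 to -0.30 and 8774 to 9391 calls. The offset, dim filter, brightest probe and value table gave 36, 34, 37 and 35 lower. In these settings 20.4%, 28.7%, 20.4% and 19.8% of all genes tested were lower. The genes called lower in every setting run numbered 11 and were Foxj1, Dnah9, Tekt1, Tekt2, Spag6l, Rsph1, Bbs2, Bbs4, Ak7, Enkur and Stk33. Rfx3 was called lower with its brightest probe (-0.28), with the offset (-0.073) and without TGFb1-Tg replicate 4. Dnah6 was called with its brightest probe, in direct channels and without TGFb1-Tg replicate 2, and Dnah11 in direct channels, with the replicate block and without TGFb1-Tg replicate 1 or WT replicate 2. The wider list had 37 lower and 0 higher under quantile normalization, against 4.94% and 5.62% of all genes. In direct channels it had 85 lower and 16 higher, against 30.3% and 21.1% of all genes.

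Signs turned as follows, and the cause was not tested. In direct channels the differences were -0.37 for Dnah1, -0.53 for Spag16 (called), 0.12 for Rsph4a, 0.15 for Rsph9, 0.084 for Hydin, 0.013 for Ift57, 0.071 for Ift74 and 0.29 for Bbs5 (called). In quantile-normalized direct channels they were 0.0066 for Rfx2, 0.13 for Rfx3, -0.23 for Dnah1, -0.084 for Spag16, 0.30 for Rsph4a, 0.014 for Rsph9, 0.13 for Hydin, 0.35 for Bbs1, 0.26 for Bbs5 (called) and 0.018 for Bbs7. Under quantile normalization Dnah1 was at -0.011 and Ift122 at -0.075, and with the brightest probe Dnah1 was at -0.000486. Leaving out 1 array gave -0.12 to 0.062 for Rfx2, -0.041 to 0.0041 for Ift140 and -0.082 to 0.0038 for Bbs5.

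Equal replicate numbers did not pair the samples (correlations of same-numbered deviations 0.03, -0.04, 0.05 and 0.03 over 16529 genes). With the replicate block, 36 of the 48 genes were lower and 1 higher, and 8937 genes were called. Intensities come to 2 decimals, so ratios of dim genes take few values, and no difference could be resolved for Dnah8 or Bbs1.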

Other observations

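Other marker lists of the lung epithelium were mixed. Of 9 goblet cell genes 3 were lower and 4 higher, of 9 basal cell genes 4 were lower and 0 higher, and of 8 neuroendocrine genes 2 were lower and 0 higher (median differences 0.16, -0.12 and -0.02). Of the alveolar genes measured, 2 of 4 of type 2 cells were higher (median 0.39) and 2 of 7 of type 1 cells were lower (median -0.27). Over all genes tested, 19.8% were called lower and 19% higher. With so few genes per list, no change of a cell type is read from these counts.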
